A study of Homo sapiens with 5 samples.

Results

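The genes SESN1, SESN2, TIGAR, GLS2, GDF15, DDIT4, TP53INP1, ZMAT3 and FDXR are known targets of p53 in metabolism, growth signalling and antioxidant defence, and binding of p53 and of the stress-responsive transcription factor ATF3 was compared at these 9 of 20163 protein-coding genes. The genes were taken as a named set, and every peak from 20 kb upstream of the gene start to the gene end was taken from the 5 deposited peak lists. This gave 70 of 123989 peaks, namely 24 for ATF3-Ctrl, 34 for ATF3-CPT, 1 for ATF3-KO, 10 for p53-CPT and 1 for p53-KO. Binding had been measured by ChIP-seq, in which DNA attached to a protein is pulled down with an antibody and sequenced, in HCT116 human colon cancer cells. ATF3 was precipitated from ATF3-WT cells given DMSO, the drug solvent (ATF3-Ctrl), from ATF3-WT cells given 1.5 μM of camptothecin during 4 h (ATF3-CPT), and from DMSO-treated cells of the ATF3-KO line (ATF3-KO). p53 was precipitated from p53-WT cells given the same camptothecin treatment (p53-CPT) and from p53-KO cells given DMSO (p53-KO). Camptothecin (CPT) breaks DNA by trapping topoisomerase I. The ATF3-KO cells are a single line made by viral gene targeting of exon 3, and all chromatin was fixed with DSG and then with formaldehyde. Because p53-CPT and p53-KO differ in both genotype and treatment, the effects of these on a difference cannot be told apart, and no p53 library of undamaged p53-WT cells was analysed here.

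p53 is a tetrameric activator that binds a 20-base motif made of a pair of 10-base sites, each with the core CATG or a close variant. Many of its targets have no part in cell death. SESN1 and SESN2 encode sestrins, which limit mTORC1 signalling and oxidative stress. DDIT4 (also REDD1) encodes another mTORC1 inhibitor. TIGAR encodes a phosphatase that slows glycolysis and favours NADPH production, and GLS2 a mitochondrial glutaminase that feeds glutathione synthesis. FDXR encodes the mitochondrial reductase that passes electrons to ferredoxin. GDF15 is a secreted stress cytokine, TP53INP1 a stress-induced nuclear and autophagy protein, and ZMAT3 a zinc-finger RNA-binding protein. ATF3 is a basic leucine zipper factor that binds the ATF/CRE core TGACGTCA and the AP-1 core TGACTCA, which is read on the opposite strand as TGAGTCA.

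Each condition had 1 library, so there was no replicate check and no test between conditions. The libraries held 12820520 to 15457013 tags for ATF3 and 1984941 (p53-KO) and 3169743 tags (p53-CPT) for p53. Each peak had a findPeaks score, a whole number with no adjustment for depth, for which the headers allow 1 tag per position, and a normalized tag count, scaled to a library of 10000000 tags. The score was above the whole tags behind the normalized tag count at 17 of the 70 peaks, so both values do not cover the same tags. The lowest scores in the lists were 9 for ATF3-Ctrl and ATF3-CPT, 11 for ATF3-KO, 7 for p53-CPT and 6 for p53-KO, and weaker binding was not detectable. Intervals are exact 95% Poisson or binomial intervals and cover counting error only. By the estimate in the headers, 5.6% of the tags lay in peaks in ATF3-Ctrl and 12.76% in ATF3-CPT. The ratios of ATF3-CPT to ATF3-Ctrl below were scaled by total tags only and were not adjusted for this difference. Values of the ATF3 and p53 libraries were not set against each other, since peak width and depth differ between them. The p53 target genes CDKN1A and MDM2 had 3 and 2 p53-CPT peaks, with top scores of 176 and 71, and neither had a p53-KO peak. In the positions below, a minus sign means upstream of the start of the GENCODE gene entry, and coordinates are those of hg19.

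The p53 motif was found with at most 3 mismatches, within 100 bp of the centre, in 6 of the 10 p53-CPT peaks at the 9 genes, in SESN1, GDF15, DDIT4 and ZMAT3. It was found in 18.3% of all 9082 p53-CPT peaks on chromosomes 1 to 22, X and Y, in 43.2% of those with no p53-KO peak (6 of 9 here), and in 4.06% of windows 1000 bp beside the peaks (0 of 10 here). A match describes the sequence and does not show which bases were bound. The matches are printed in capitals on the plus strand of the reference because they show how the p53-CPT sites of the 4 genes differ, and the 3 that touch an untranslated exon are given without flanks.
ZMAT3 p53-CPT +2031, chr3:178787936-178788035: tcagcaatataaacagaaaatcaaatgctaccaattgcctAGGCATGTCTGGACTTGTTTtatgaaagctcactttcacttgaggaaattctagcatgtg
DDIT4 p53-CPT -3148, chr10:74030482-74030581: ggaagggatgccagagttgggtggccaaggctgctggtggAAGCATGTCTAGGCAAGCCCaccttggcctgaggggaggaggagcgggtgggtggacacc
GDF15 p53-CPT -768, chr19:18484717-18484816: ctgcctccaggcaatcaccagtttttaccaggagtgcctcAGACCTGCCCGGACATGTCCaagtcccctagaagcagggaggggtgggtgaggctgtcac
GDF15 p53-CPT -9731, chr19:18475797-18475816: CTGCATGTCCCGGCATGTCT
GDF15 p53-CPT +11471, chr19:18496996-18497015: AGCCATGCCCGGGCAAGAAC
SESN1 p53-CPT +85826, chr6:109330221-109330240: TGACTTGTGGAGACTTGTCC

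The ZMAT3 and DDIT4 matches had 0 mismatches, the GDF15 match at -768 had 1, and the other 3 had 3 each. The mismatches of the SESN1 match all fell in its first 10 bases, which left the second site intact. The number of mismatches did not follow the p53-CPT score: DDIT4, with 0 mismatches, had the lowest score in the list (7), whereas GDF15 at -9731, with 3, scored 62. The best windows of the other 4 p53-CPT peaks had 4 mismatches (TIGAR at 13820 and 28713, TP53INP1 at -171) or 6 (TIGAR at 10630).

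Few of the ATF3-CPT peaks at the 9 genes held an exact core. Of the 34 peaks, 8 held an exact AP-1 core within 100 bp of the centre and 0 held TGACGTCA, against 43.9% of all 70231 ATF3-CPT peaks with either core and 3.51% of windows 1000 bp to the side (1 of 34 here). These 8 peaks lay at 6 genes and scored 10 to 37. Of the 6 peaks that scored at least 50, 0 held an exact core, whereas 63.5% of the 7737 such peaks in the whole list did (the limit of 50 was chosen after the scores were seen). With 1 mismatch allowed, 24 of the 34 peaks held a core, against 81.9% of all peaks. The element TGATGCAA, in which a C/EBP site is joined to an ATF site and which ATF4 is known to bind, was searched for on both strands after the sequences had been seen. It occurred in 2 of the 34 peaks, against 3.69% of all peaks and 0.562% of windows to the side (0 of 34 here).

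Sequences of 4 peaks set the elements side by side. Capitals mark an AP-1 core or TGATGCAA on the plus strand, and a sequence with no capitals held neither of these nor TGACGTCA. The SESN2 and DDIT4 peaks carry TGATGCAA, the GDF15 peak an AP-1 core, and the FDXR peak none of the elements.
SESN2 ATF3-CPT -9924, chr1:28576043-28576167: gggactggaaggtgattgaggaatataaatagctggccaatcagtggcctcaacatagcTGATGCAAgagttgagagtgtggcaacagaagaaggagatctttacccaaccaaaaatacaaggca
DDIT4 ATF3-CPT -962, chr10:74032654-74032778: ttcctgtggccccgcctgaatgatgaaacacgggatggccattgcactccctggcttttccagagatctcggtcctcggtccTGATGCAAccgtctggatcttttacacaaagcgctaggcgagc
GDF15 ATF3-CPT -142, chr19:18485337-18485461: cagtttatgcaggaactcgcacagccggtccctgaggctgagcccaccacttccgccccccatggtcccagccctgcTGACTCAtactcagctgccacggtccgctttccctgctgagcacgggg
FDXR ATF3-CPT -344, chr17:72869438-72869562: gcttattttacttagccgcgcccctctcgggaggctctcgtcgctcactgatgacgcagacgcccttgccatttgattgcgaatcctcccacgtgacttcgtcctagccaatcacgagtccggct

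**Figure D1:**
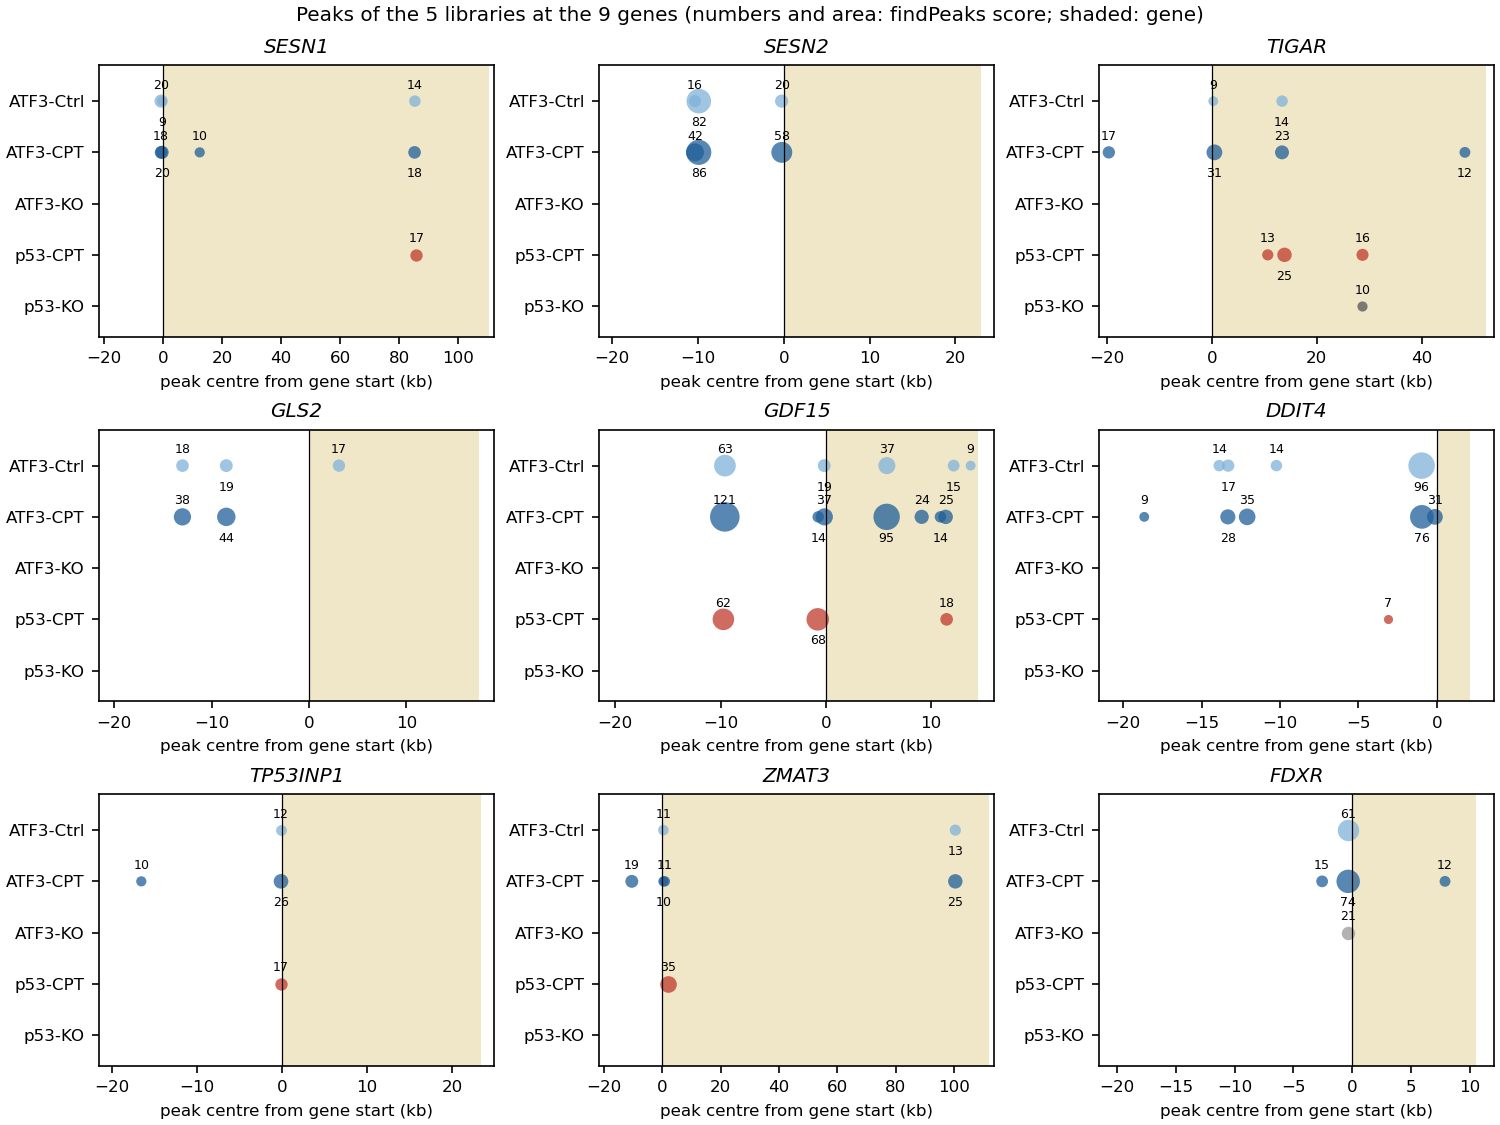
Peaks at each of the 9 genes by library. The x axis gives the distance of the peak centre from the gene start in kb, with the gene shaded, each row is 1 library, and the printed number and the area of each point give the findPeaks score. GDF15 had 3 p53-CPT peaks and 7 ATF3-CPT peaks, and the knockout rows hold 1 peak each, at FDXR (ATF3-KO) and TIGAR (p53-KO).

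p53-CPT peaks were found at 6 of the 9 genes (SESN1, TIGAR, GDF15, DDIT4, TP53INP1 and ZMAT3), against 21.8% of all protein-coding genes. A p53-KO peak was found at 1 of 9, TIGAR, against 17.5% of all genes. Of the 10 p53-CPT peaks, 1 overlapped a p53-KO peak, whereas 60.9% of all p53-CPT peaks did. The 9 gene regions had a median length of 43.0 kb, against 47.2 kb for all genes. The p53-KO library was the smaller one, and at its depth the 9 p53-CPT peaks with no p53-KO peak would have held between 4.39 (DDIT4) and 50.1 tags (GDF15 at -768). The value of the DDIT4 peak is below the lowest p53-KO score of 6, so a peak of that size was not expected to be listed in p53-KO. The median score of the 10 peaks was 17.5, against 12 over the whole p53-CPT list. Of the 10, 9 scored above 9, the median of the 3550 p53-CPT peaks with no p53-KO peak. The 10 include TIGAR at 28713, which did overlap a p53-KO peak.

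All 9 genes had ATF3 peaks, as most genes did. ATF3-Ctrl peaks were found at 9 of 9 genes, against 65.2% of all genes, and ATF3-CPT peaks at 9 of 9, against 81.0%. An ATF3-KO peak was found at 1 of 9, FDXR, against 11.4%. The median number of ATF3-CPT peaks per region was 4, against 2 for all genes, and that of ATF3-Ctrl peaks was 3, against 1. Of the 34 ATF3-CPT peaks, 1 overlapped an ATF3-KO peak, against 2.53% of all ATF3-CPT peaks. Within 2 kb of the gene start lay 12 of the 34 peaks, at 8 genes, against 24.0% of all ATF3-CPT peaks in such regions. GLS2 was the gene with no ATF3-CPT peak there.

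ATF3-CPT and p53-CPT peaks coincided at GDF15 and TP53INP1. Of the 10 p53-CPT peaks, 4 overlapped an ATF3-CPT peak, against 10.2% of all p53-CPT peaks, and all 4 were among the 9 with no p53-KO peak, against 18.8% of those. The 4 were the 3 GDF15 peaks and the TP53INP1 peak, so that 1 gene gave most of the count. An ATF3-CPT centre lay within 500 bp of 5 of the 10, the fifth being TIGAR at 13820, against 13.2%. The median distance from a p53-CPT centre to the nearest ATF3-CPT centre was 540.5 bp at the 9 genes. It was 7176.5 bp over the p53-CPT peaks with no p53-KO peak, and 14608.5 bp over the whole list. The peaks at the 9 genes lie in gene regions by choice. The distances and shares set beside them take p53-CPT peaks anywhere, also far from genes, and were not matched for position. Of the 4 sites, those of GDF15 at -9731 and of TP53INP1 also had an ATF3-Ctrl peak. The other 2, both at GDF15, had listed ATF3 peaks after CPT only. The ATF3-CPT peak at -725 was close to the ATF3-Ctrl threshold (8.4 against 6.95).

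**Figure D2:**
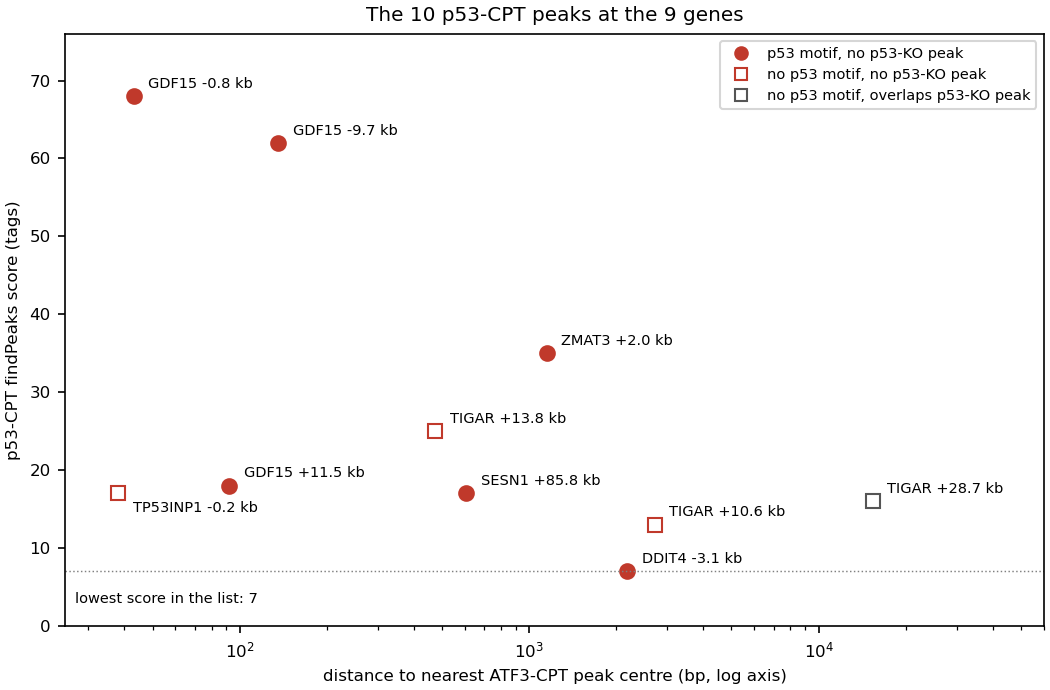
The 10 p53-CPT peaks by distance to the nearest ATF3-CPT peak centre (x axis, bp, log scale) and findPeaks score (y axis, tags). Filled circles have a p53 motif and open squares have none, and the grey square overlaps a p53-KO peak. The 4 peaks nearest to an ATF3-CPT centre, at 38 to 136 bp, are those of TP53INP1 and GDF15, and the GDF15 peaks at -768 and -9731 bp score highest.

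GDF15 (ENSG00000130513, chr19:18485541-18499986, plus strand) had the highest-scoring p53-CPT peaks and the highest-scoring ATF3-CPT peak of the 9 genes. Its gene entry starts with an upstream exon, and the transcript that GENCODE marks as MANE Select starts at 18496968, inside the entry. Having 3 or more p53-CPT peaks put it, with TIGAR, among 1.72% of genes (346), and 7 or more ATF3-CPT peaks were found at 11.3% of genes. The p53-CPT peak at -768 (chr19:18484614-18484932, between genes) scored 68 with a normalized tag count of 252.4, rank 83 among the 3550 p53-CPT peaks with no p53-KO peak. Its p53 motif lay inside the ATF3-CPT peak at -725 (chr19:18484754-18484878), which was weak, scoring 14 with a normalized tag count of 8.4 (4.48 to 14.4). The strong p53 site therefore had a weak ATF3 peak, listed after CPT and not in ATF3-Ctrl. Its interval includes 6.95, the value of the ATF3-Ctrl threshold, so the missing ATF3-Ctrl peak does not show a site bound only after CPT.

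The p53-CPT peak of GDF15 at -9731 (chr19:18475651-18475969), in an untranslated exon of the neighbouring gene PGPEP1, scored 62 with a normalized tag count of 220.8 (172.0 to 279.0). Measured from the MANE Select start, this site would lie outside the 20 kb taken, and position does not tell which gene it belongs to. The count of 3 p53-CPT peaks at GDF15, the overlap with ATF3 counted here and the ATF3-CPT score of 121 therefore depend on the start used. The ATF3 peak at -9595 was strong in both ATF3 libraries. Its normalized tag count was 59.5 in ATF3-Ctrl and 108.7 in ATF3-CPT, a ratio of 1.83 (1.39 to 2.43), and its ATF3-CPT score of 121 was above that of 99.2% of the list. The third p53-CPT peak, at 11471 (chr19:18496853-18497171), lay 44 bp from the MANE Select start and scored 18 (50.5, 28.9 to 82.0), and the overlapping ATF3-CPT peak scored 25 (16.8, 11.0 to 24.6). No ATF3-Ctrl peak overlapped it. The second strongest ATF3 peak of the gene, in an intron at 5773, had no p53-CPT peak, and its normalized tag count was 29.3 in ATF3-Ctrl and 77.6 in ATF3-CPT, a ratio of 2.65 (1.82 to 3.92), the highest of the 9 genes.

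At ZMAT3 (ENSG00000172667, chr3:178677909-178790003, minus strand) p53 and ATF3 peaks lay apart. The p53-CPT peak at 2031 (chr3:178787813-178788131), in an intron and holding the motif printed above, scored 35 with a normalized tag count of 126.2 (90.2 to 172.0), rank 273 of 3550. The nearest ATF3-CPT peak was the one at 879, on the side of the gene start, and did not overlap it. The ATF3-CPT peaks near the gene start, at 406 and 879, were weak, with scores of 10 and 11, and the highest-scoring ATF3-CPT peak (25) lay in an intron at 100426, where the normalized tag count was 9.3 in ATF3-Ctrl and 17.5 in ATF3-CPT (ratio 1.88, 0.923 to 4.08). The interval of that ratio includes 1.

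SESN1 and SESN2, both sestrin genes, differed in p53 peaks. SESN1 (ENSG00000080546, chr6:109305512-109416049, minus strand) had 1 p53-CPT peak, at 85826 (chr6:109330064-109330382), in an intron and 32 bp from the start of an internal transcript. It scored 17 with a normalized tag count of 53.6 (31.2 to 85.9), and the nearest ATF3-CPT centre was 607 bp away. That ATF3 site, at 85219, had normalized tag counts of 11.6 in both ATF3-Ctrl and ATF3-CPT. At the SESN1 start the ATF3 peaks lay in the untranslated exon of the divergent gene CEP57L1, with ATF3-CPT scores of 20 (at -292) and 18 (at -623), so that the gene they belong to cannot be told from position.

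SESN2 (ENSG00000130766, chr1:28586029-28609002, plus strand) had no peak in either p53 list, the nearest p53-CPT peak lying at 92954, beyond the gene (score 32). Its ATF3 peaks were among the strongest of the 9 genes. The peak with TGATGCAA at -9924 had normalized tag counts of 82.6 in ATF3-Ctrl and 69.2 in ATF3-CPT, a ratio of 0.838 (0.635 to 1.11), and an ATF3-CPT score of 86. At its neighbour at -10363 the normalized tag count was 13.9 in ATF3-Ctrl and 29.1 in ATF3-CPT, a ratio of 2.09 (1.19 to 3.84). The promoter peak at -239 had 17.0 in ATF3-Ctrl and 43.3 in ATF3-CPT, a ratio of 2.55 (1.56 to 4.34). These 3 neighbouring sites thus did not move alike, and the interval of the strongest did not overlap that of either other site.

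DDIT4 (ENSG00000168209, chr10:74033678-74035794, plus strand) combined the strongest ATF3-Ctrl peak of the 9 genes with the weakest p53-CPT peak. The p53-CPT peak at -3148 (chr10:74030371-74030689) held 7 tags (22.1, 8.88 to 45.5), the lowest score the list allows, at the motif with 0 mismatches printed above. The nearest ATF3-CPT centre was 2186 bp away. The ATF3 site at -962 (chr10:74032654-74032778), which holds TGATGCAA, had a normalized tag count of 93.5 (77.5 to 112.0) in ATF3-Ctrl and of 56.3 (45.1 to 69.4) in ATF3-CPT. The ratio of 0.602 (0.452 to 0.8) was the lowest of all shared sites at the 9 genes and the one whose interval lay below 1. A second ATF3-CPT peak close to the start, at -133, scored 31 and had no ATF3-Ctrl peak, and the sites at -13322 and -12091 each held an AP-1 core and scored 28 and 35.

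TIGAR (ENSG00000078237, chr12:4416929-4469194, plus strand; C12orf5 in older annotation) had 3 p53-CPT peaks, all in introns and none with a p53 motif at the 3 mismatches allowed. The highest, at 13820 (chr12:4430590-4430908), scored 25 with a normalized tag count of 88.3 (58.7 to 128.0). It lay 474 bp from an ATF3-CPT peak of score 23, at 13346, where ATF3 had 10.0 in ATF3-Ctrl and 14.9 in ATF3-CPT (ratio 1.49, 0.72 to 3.19). An internal TIGAR transcript starts at 4430379. Measured from that start, this p53-CPT peak lay at 370 and the ATF3-CPT peak at -104. All 3 p53-CPT peaks also lie within the gene entry ENSG00000285901, so position does not tell which gene they belong to. The peak at 10630 scored 13 (63.1, 38.5 to 97.4), with 20 tags in all. At 28713 (chr12:4445483-4445801) the p53-CPT peak, which scored 16 (44.2, 24.1 to 74.1), overlapped a p53-KO peak that scored 10 (65.5, 34.9 to 112.0). The antibody signal there was thus present in cells without p53, and the intervals overlapped. The highest-scoring ATF3-CPT peak of the gene, at 440, scored 31, and the ATF3-Ctrl peak near it, at 224, did not overlap it.

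GLS2 (ENSG00000135423, chr12:56864728-56882198, minus strand) had no p53 peak, the nearest p53-CPT peak lying at -381328 with a score of 7 and overlapping a p53-KO peak. Its ATF3-CPT peaks lay between genes at -8481 and -12983, with scores of 44 and 38. At -8481 the normalized tag count was 13.9 in ATF3-Ctrl and 30.4 in ATF3-CPT, a ratio of 2.19 (1.25 to 4.0), and at -12983 it was 14.7 and 25.9, a ratio of 1.76 (0.998 to 3.22). The near-equal values have to be read with the sequences, which are inverted copies of each other. When windows of 301 bases around the centres were compared, 292 of 295 aligned bases were identical on opposite strands, with a longest shared run of 133 bases. Reads from one copy can align to the other, so the values of the 2 peaks are uncertain, and 1 site cannot be told apart from 2. Both peaks are printed on the plus strand, so that the end of one can be read against the start of the other as its reverse complement.
GLS2 ATF3-CPT -8481, chr12:56890617-56890741: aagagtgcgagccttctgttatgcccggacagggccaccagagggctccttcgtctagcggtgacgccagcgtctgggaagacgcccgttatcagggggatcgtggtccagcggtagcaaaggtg
GLS2 ATF3-CPT -12983, chr12:56895119-56895243: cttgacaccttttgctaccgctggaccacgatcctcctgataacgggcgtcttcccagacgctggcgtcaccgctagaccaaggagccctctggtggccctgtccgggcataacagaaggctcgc

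FDXR (ENSG00000161513, chr17:72858619-72869156, minus strand) had no p53 peak, and the nearest p53-CPT peak lay at -83336 with a score of 8. It was the gene whose ATF3 peak was also found in ATF3-KO cells. The promoter site at -344 had normalized tag counts of 55.6 (43.5 to 70.0) in ATF3-Ctrl and 56.3 (45.1 to 69.4) in ATF3-CPT, a ratio of 1.01 (0.732 to 1.4), with scores of 61 and 74. The ATF3-KO peak there scored 21 with a normalized tag count of 17.2 (10.8 to 26.0). Part of the signal at this site was therefore present without ATF3, and both wild-type values lay above the ATF3-KO interval.

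In the ATF3-Ctrl and ATF3-CPT libraries together, 18 of the 34 ATF3-CPT peaks overlapped an ATF3-Ctrl peak, against 38.3% of all ATF3-CPT peaks, and in the other direction 18 of the 24 ATF3-Ctrl peaks had an ATF3-CPT partner, against 79.9%. The 34 ATF3-CPT peaks had a median score of 24.5, against 16 over the whole list, and the 24 ATF3-Ctrl peaks 16.5, against 13. The shares over all peaks were not matched for score. The 18 shared sites fell at all 9 genes. The normalized tag count was at least 2-fold higher after CPT at 5 of them (2 at SESN2 and 1 each at GDF15, GLS2 and TP53INP1), against 43.9% of all 26907 shared sites, and at least 2-fold lower at 0, against 2.16%. The median ratio was 1.79, with ratios from 0.602 to 2.65, against 1.81 over all shared sites, so the shared sites at the 9 genes moved in the middle much as the rest of the list did. The ratio was above 1 at 13 of 18 sites, against 80.6% of all. The interval lay above 1 at 6 sites, against 48.2% of all shared sites, and below 1 at 1 site, DDIT4 at -962, against 3.03%. The sites that carry TGATGCAA, at SESN2 and DDIT4, both had ratios under 1, which was seen after the values were known. The SESN2 interval included 1 (0.635 to 1.11). Ratios were also under 1 at SESN1 -623 (0.759) and ZMAT3 406 (0.835), which lack the element. How the ratios of all shared sites with TGATGCAA lie was not computed.

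**Figure D3:**
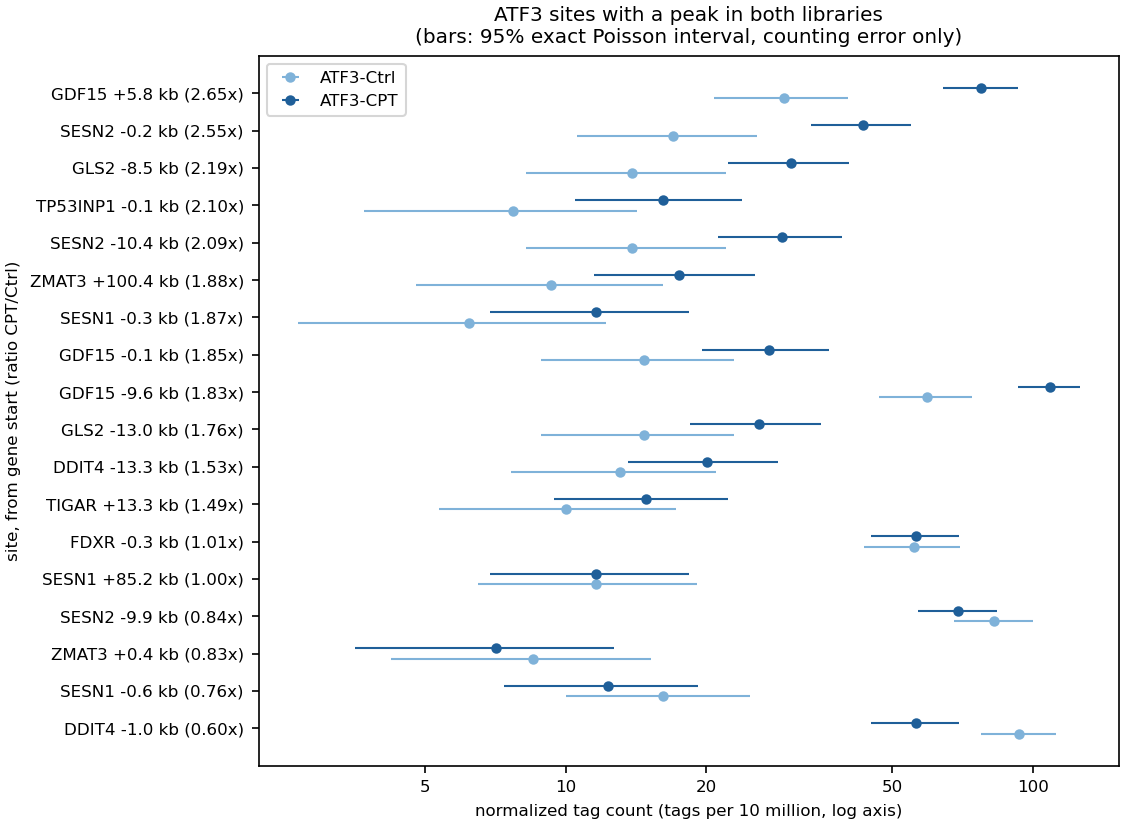
Normalized tag count (x axis, tags per 10000000, log scale) in ATF3-Ctrl (light) and ATF3-CPT (dark) at the 18 sites with a peak in both lists, ordered by ratio, with exact 95% Poisson intervals. The sites run from DDIT4 at -962 bp, the one where the ATF3-Ctrl value is clearly higher, to GDF15 at 5773 bp, and the 2 strongest ATF3-Ctrl sites (DDIT4 at -962 bp and SESN2 at -9924 bp) lie in the lower part of the order.

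The 16 ATF3-CPT peaks with no ATF3-Ctrl peak were weaker, with scores of 9 to 35 and normalized tag counts of 5.8 to 23.9. At the value of 1 tag in ATF3-Ctrl, 0.772, the threshold of 9 tags corresponds to 6.95, so the lowest of these would have been near or under the threshold of ATF3-Ctrl at the same level. The 6 ATF3-Ctrl peaks with no overlapping ATF3-CPT peak lay at GDF15 (at 12139 and 13752), DDIT4 (at -13870 and -10228), GLS2 (at 3082) and TIGAR (at 224), with scores of 9 to 17.

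**Figure D4:**
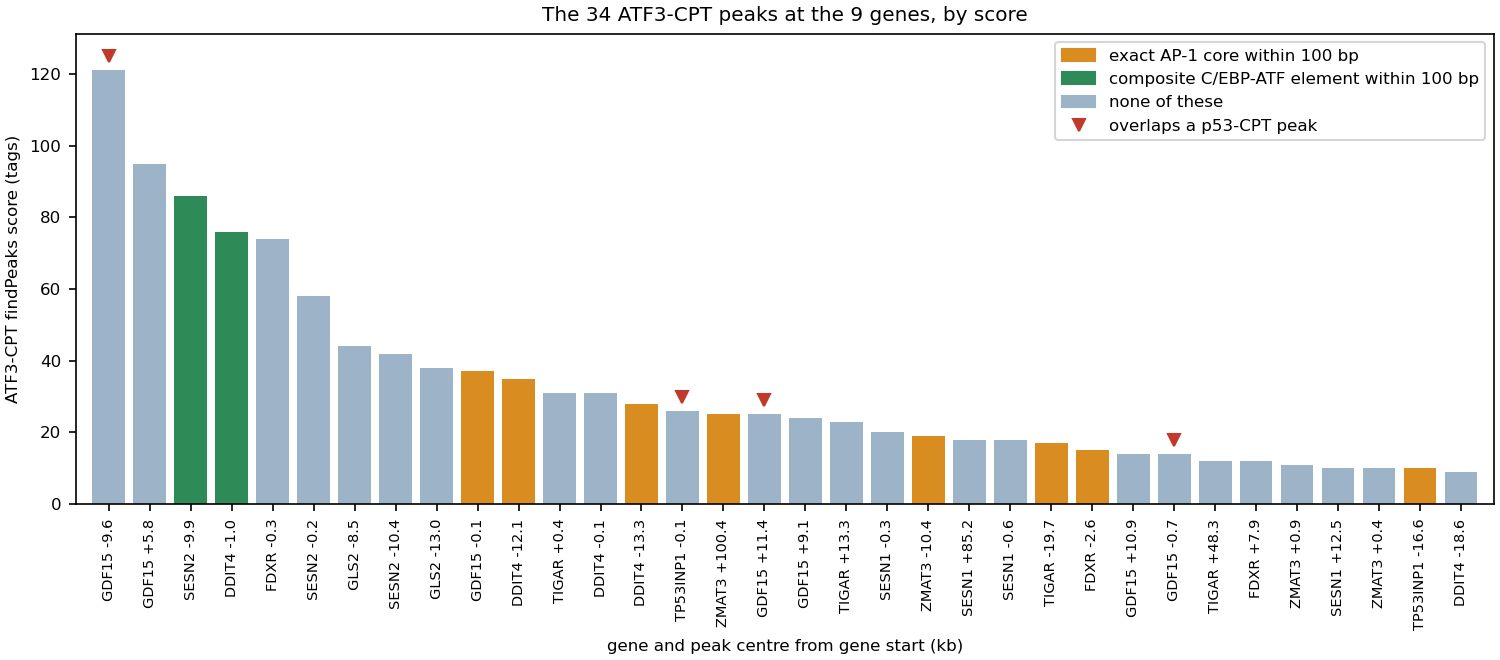
The 34 ATF3-CPT peaks at the 9 genes in order of findPeaks score (y axis, tags), each named by gene and distance of its centre from the gene start in kb. Orange bars hold an exact AP-1 core, green bars TGATGCAA and grey-blue bars neither, and red triangles mark overlap with a p53-CPT peak. The 8 AP-1 peaks score 10 to 37, and the 6 peaks scoring at least 50 include the 2 green bars and no orange one. In the whole list, 63.5% of the 7737 peaks scoring at least 50 held an exact core and 4.48% held TGATGCAA. Both the limit of 50 and the element were chosen after the data were seen.

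TP53INP1 (ENSG00000164938, minus strand) lies on chromosome 8 (start 95938200, end 95961606) and had ATF3 and p53 peaks on top of each other at its start. The p53-CPT peak at -171 scored 17 with a normalized tag count of 50.5 (28.9 to 82.0), 38 bp from the nearest ATF3-CPT centre. The ATF3 site at -133 had 7.7 (3.7 to 14.2) in ATF3-Ctrl and 16.2 (10.5 to 23.9) in ATF3-CPT, a ratio of 2.1 (0.971 to 4.89). The ratio passed the fold of 2 while its interval included 1. The site also lies in an exon of the neighbouring gene NDUFAF6, so position does not tell which gene it belongs to. A weak ATF3-CPT peak, of score 10, lay at -16574 in an intron of NDUFAF6.

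A list of 22 further genes linked to p53 in metabolism and redox balance was counted the same way. ATF3-Ctrl peaks were found at 18 of 22, against 65.2% of all genes, ATF3-CPT peaks at 21, against 81.0%, and ATF3-KO peaks at 0, against 11.4%. p53-CPT peaks were found at 10 of 22, against 21.8% of all genes, and at 6 of these genes with no overlapping p53-KO peak. The share of all genes for the latter count was not computed, and 60.9% of all p53-CPT peaks overlapped a p53-KO peak. p53-KO peaks were found at 6 of 22, against 17.5%. Of the 10 p53-CPT peaks of this list, 1 overlapped an ATF3-CPT peak, against 10.2% of all p53-CPT peaks. High p53-CPT scores were found at RRAD, a small GTPase that limits glucose uptake (54, normalized tag count 183.0), GPX1, a glutathione peroxidase (41, 135.7), and ACAD11, an acyl-CoA dehydrogenase (31, 104.1). SLC7A11, the cystine transporter, had a score of 22 (94.6) and overlapped a p53-KO peak of the same score (141.1). Compared with these, GDF15 at -768 and -9731 had higher p53-CPT scores, and ZMAT3 lay between GPX1 and ACAD11.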

How the data were processed

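ChIP-seq had been done in HCT116 cells with 1 library per condition. According to the submitters' processing notes, reads were aligned to hg19 with BWA (0.6.1) and HOMER (4.1) called the peaks of every library on its own, and its command in the file headers names no input library. For each peak the authors deposited the normalized tag count, a signal scaled to 10000000 tags for each library. The authors also deposited the findPeaks score, a whole-number count for which the headers allow 1 tag per position. It exceeds the tags of the same peak at 23.8% to 29.9% of the peaks of each list, so it covers other tags than the normalized tag count. Of the other deposited columns, none was used: they hold the local fold, a p-value and a focus fraction (how centred the tags of a peak are), as the authors' program gave them. Whole tags were recovered from 100% of the normalized tag counts, within the rounding of the deposited values.

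Gene regions came from the GRCh37 version of GENCODE release 44, a build that matches hg19, and 0 peaks ended past a chromosome. An overlap of 1 bp or more made peaks shared. At shared ATF3 sites, ratios of normalized tag counts were given with conditional exact binomial intervals, and a ratio of at least 2 in either direction was called past the fold. The p53 motif was searched on both strands with no spacer. Calculations used Python 3.11.15, pandas 2.3.3, numpy 2.4.6 and scipy 1.17.1, and were tested on simulated data. Alternatives covered the region, score, overlap, fold, value compared, motif mismatches and window. The text gives every p53-CPT and knockout peak, every overlap of ATF3 with p53, the strongest ATF3 peaks, and up to 5 further genes by p53-CPT score. One result among the further genes is not reported here. Genes and lists were chosen with earlier results of these data known.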

Additional observations from a re-analysis of the deposited data

How the results depend on the processing

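Of 56 alternatives, 39 kept their count within 1.5 times or their median within its interval, and 17 moved. With the gene body only, the genes with a peak fell from 9 to 5 (ATF3-Ctrl), from 9 to 5 (ATF3-CPT) and from 1 to 0 (ATF3-KO), and the p53-CPT peaks that overlap an ATF3-CPT peak from 4 to 1 of 6. With 50 kb upstream, 3 genes had a p53-KO peak. With a score of at least 20, 5 genes had an ATF3-Ctrl peak, 3 a p53-CPT peak and 0 a p53-KO peak, and 1 of 4 p53-CPT peaks overlapped an ATF3-CPT peak. Sites past the fold after CPT numbered 11 higher and 1 lower at a fold of 1.5, 0 and 0 at a fold of 3, and 3 higher with the score per tags of the library. When ratios were divided by the median of all shared sites, the balance turned over, with 0 higher and 4 lower against 5 and 0. Taking the GLS2 copies out, chosen after seeing the data, left 4 of 16 sites higher and a median of 1.68. At most 2 mismatches left 3 of 10 p53-CPT peaks with a motif, and 1 mismatch in the core raised the ATF3-CPT peaks with a core from 8 to 24. Counting every annotated transcript start put 18 of 34 ATF3-CPT peaks within 2 kb, against 36.7% of all such peaks. No share over all genes, sites or peaks was computed for the region, score and fold settings above, nor for 2 mismatches. Such shares change with the setting too: a score of at least 20 kept 9190 of 33966 ATF3-Ctrl and 2091 of 9211 p53-CPT peaks. The changed counts therefore do not single out these genes.

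The p53 libraries were the shallowest, and 1 tag was worth 3.15 in p53-CPT and 5.04 in p53-KO, and binding under the threshold was not detectable at a gene with no peak. No paired analysis was possible because each condition had 1 library, and leaving out a replicate was not possible for the same reason.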

Other observations

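Outside the comparisons above, 4 of the 22 further genes are named here for their ATF3 scores, after these values were seen. SLC7A11, the cystine transporter, had the highest ATF3-Ctrl score of the list, 138 (normalized tag count 207.8), and an ATF3-CPT score of 143 (160.4). LPIN1, a phosphatidate phosphatase of lipid synthesis, had 14 ATF3-CPT peaks with a top score of 141 (127.5), against 3 ATF3-Ctrl peaks with a top score of 59 (58.7). At SLC2A1, the glucose transporter GLUT1, the top ATF3 score was 50 in ATF3-Ctrl and 111 in ATF3-CPT. At SOD2, the mitochondrial superoxide dismutase, it was 28 and 95. These scores are not adjusted for depth, and the top peaks in ATF3-Ctrl and ATF3-CPT need not be the same site. The whole ATF3-CPT list held 70702 peaks, against 33966 for ATF3-Ctrl. Over all shared sites the median ratio of normalized tag counts was 1.81, so these values do not single out the named genes. LPIN1, SLC2A1 and SOD2 had no peak in either p53 list. The one p53-CPT peak of the 22 genes that overlapped an ATF3-CPT peak lay at TP53I3, where the p53-CPT score was 13 and the p53-KO score 15.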
